A study of Mus musculus with 6 samples.

Results

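Many mammalian genes carry more than 1 poly(A) site, so that the same coding sequence is followed by a short or a long 3′ UTR. Cleavage at the site nearest to the stop codon gives the short form, cleavage further downstream adds the distal part, and the distal part can hold sequences to which RNA-binding proteins and miRNAs attach. Among these proteins is AUF1, the product of Hnrnpd, which binds AU-rich elements of 3′ UTRs and is known for its part in the decay of cytokine mRNAs in macrophages. The genes described here are the 684 protein-coding genes with a counted short and a counted long 3′ UTR region that begin at the same base and whose downstream ends lie at least 1000 bases apart, with a mean of at least 50 reads on the long region over the 6 libraries. They were chosen from 8729 genes with any such pair of regions, of which 3344 had ends at least 1000 bases apart, and from 21820 protein-coding genes in the table. The mean count over all libraries chose the genes. It is not the contrast between the groups, but 84 genes had a control mean, and 6 an M-Δx3,4 mean, under 50 reads and reached the limit through the other group.

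Bone marrow derived macrophages (BMDMs) of C57BL/6J mice were differentiated for 10 days in medium conditioned by L929 cells and then treated with 100 ng/ml LPS for 4 hrs in every library. The 3 control libraries came from hnRNPDfl/fl cells, in which exons 3 and 4 of Hnrnpd lie between loxP sites, and the 3 M-Δx3,4 libraries from LysCre+hnRNPDfl/fl cells, which carry the same alleles and a Cre driven by the myeloid lysozyme gene. Both groups therefore share the floxed alleles, and no untreated cells or Cre-only cells were among the libraries used here. RNA was sequenced from the 3′ end of polyadenylated transcripts (QuantSeq), so that the reads of a transcript lie close to its poly(A) site.

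For each gene the distal count was the count of the long region minus the count of the short region, and the distal share was the distal count as a percentage of the count of the long region. Reads were counted up to 249 bases past the annotated end of a transcript, so reads from a site slightly beyond the short end belong to the proximal part. A share near 0% thus means that reads ended at the short form and a share near 100% that they ended beyond it, at the long end or at any site in between. At least 1 more annotated end lay between the short and the long one in 346 of the 684 genes. In bulk RNA a change in the share can come from a change in cleavage, in the stability of 1 of the forms or in the mixture of cells, and these cannot be told apart.

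The library totals ran from 5852374 to 9008878 counts. The Hnrnpd transcript checked for the labels (ENSMUST00000072750, itself not among the 684 genes) had normalized counts of 178, 104 and 69.6 in control replicates 1, 2 and 3 and of 52.8, 12.6 and 16.0 in the M-Δx3,4 replicates, with no overlap. This count comes from the 3′ UTR, outside the deleted exons, so it does not measure the deletion itself. All 9 macrophage markers had counts, and their summed normalized level was 7258 to 10590 in control and 5846 to 7967 in M-Δx3,4. Summed B cell markers (6 of 6 with a count) were 300 to 358 in control and 142 to 164 in M-Δx3,4, without overlap, and those of neutrophils were 231 to 600 and 384 to 535. T cell markers (2 of 4), dendritic cell markers (4 of 4) and fibroblast markers (4 of 4) each summed to at most 43.0. The part of these cells in the results was not tested. Control replicates 1 and 3 stood furthest apart. The correlation of the log2 normalized counts of the 684 long regions was 0.771 between these libraries, the lowest of the 15 pairs, against 0.946 to 0.950 among the M-Δx3,4 libraries, and values without each library are given beside the results that rest on them.

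Although each of the 684 genes has a short and a long annotated form, at least 90% of the reads lay in 1 part in most of them. The distal share over all libraries was under 10% in 150 genes (21.9%), above 90% in 288 (42.1%) and between these limits in 246 (36.0%). The limits of 10% and 90% were set after the values were seen, and 44 genes lay between 5% and 15% and 92 between 85% and 95%. No read fell in the distal part of 18 genes and no read in the proximal part of 61. The median share was 81.4%, with quartiles of 16.2% and 98.2%. The 246 genes between the limits are called mixed genes here.

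**Figure D1:**
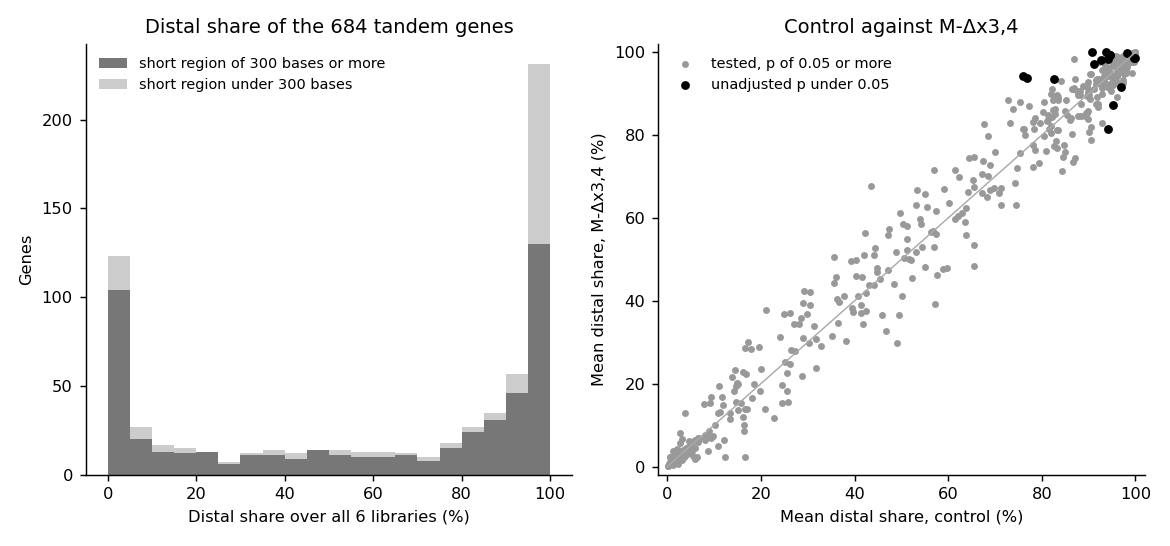
Left, number of genes (y axis) by distal share over all 6 libraries (x axis, %), stacked by the length of the short region, with shares below 0 drawn at 0. The shares pile up at both ends, with 150 genes under 10% and 288 above 90%. Right, mean distal share of the 474 tested genes in M-Δx3,4 (y axis, %) against control (x axis, %), with black points for the 16 genes with an unadjusted p under 0.05 and a line where both are equal. The points lie around the line along its whole length.

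The length of the short region mattered for what could be measured. In 175 genes it was under 300 bases, and in 90 of these it was 249 bases, which is a short transcript with no annotated 3′ UTR of its own. Among short regions under 300 bases the short count exceeded the long count in at least 1 library in 217 of 2890 pairs, and in 0 of 6140 pairs with longer ones. The subtraction is therefore not exact for the former, and no such sign was seen in the latter, 509 of the 684 genes. How short regions were counted is not known. The median share of the 509 genes was 69.5%, with 124 genes under 10%, 209 mixed and 176 above 90%. Of the 684 genes, 14 had more reads on the short than on the long region in some library and were left out of the tests, and another 196 had fewer than 10 reads in 1 of the parts. This left 474 genes in the test of the share.

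What the short and long ends share was read from the transcript sequences of GENCODE vM21 (GRCm38), in which 676 of the 684 genes were found. The cleavage machinery recognizes a poly(A) signal, most often AATAAA and next ATTAAA, a short way upstream of the cut. Either word stood in the last 50 bases of the long transcript in 80.2% of the genes and in the last 50 bases of the short transcript in 25.6%, on the transcript strand. In a window of the same length in the middle of the distal part it stood in 4.73%, and in the last 50 bases of all 58787 protein-coding transcripts of the annotation in 50.2%. The long end thus carried a signal word more often, and the short end less often, than annotated ends as a whole. Whether short ends without a word are poly(A) sites, or ends of transcripts that are incomplete in the annotation, was not tested.

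The signal at the short end moved with the share. It was present in 47.3% of the genes with a share under 10%, in 29.1% of the mixed genes and in 11.3% of the genes with a share above 90%. At the long end the figures were 70.9%, 81.1% and 84.2%. Among genes with a short region of 300 bases or more the median share was 20.5% (quartiles 1.32% and 61.6%) in the 108 with AATAAA at the short end, 37.1% (2.91% and 83.5%) in the 54 with ATTAAA and 85.5% (30.8% and 97.9%) in the 345 with neither. With a word at the short end only (34 genes) the median was 3.41%, with a word at both ends (128 genes) 33.7%, with one at the long end only (274 genes) 86.9% and with none at either end (71 genes) 80.4%. These are descriptions of 1 set of macrophage libraries, since genes are not replicates, and the quartiles show how wide each set is.

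**Figure D2:**
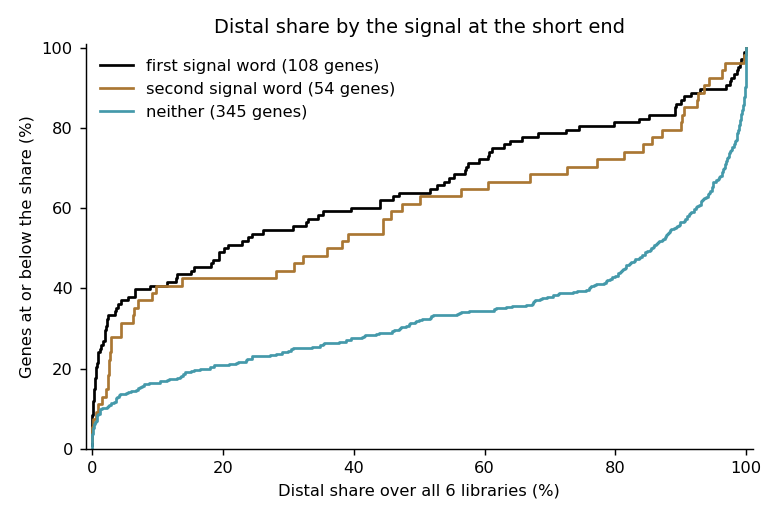
Cumulative share of genes (y axis, %) at or below a distal share (x axis, %), for genes with a short region of 300 bases or more, by the poly(A) signal in the last 50 bases of the short transcript. The first signal word is the most frequent form of the signal and the second its most frequent variant. The curve of the 345 genes with neither word lies to the right of both others, with medians of 85.5%, 20.5% and 37.1%.

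The following windows of 30 bases show the signal at the short end of genes whose reads ended there, with the signal in capitals. They are given 5′ to 3′ on the transcript strand.
Rac1, short end, chr5:143505482-143505511, minus strand: catgtatgaattAATAAAtccttgaatcat
Caprin1, short end, chr2:103765018-103765047, minus strand: tattttaaaataAATAAAataagttcttga
Elavl1, short end, chr8:4288351-4288380, minus strand: gcatttaagaccATTAAAtttgattttgtt
The distal shares of these genes were 0.0421%, 2.44% and 2.64%. Caprin1 also carried a signal at its long end, 2077 bases further on, where few reads ended.
Caprin1, long end, chr2:103762951-103762980, minus strand: agtgggtcatctAATAAAactgccatttaa

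In mixed genes a signal could be found at both ends, as in Irf8, Rab1a and Otud5. These are shown because their reads were split between the proximal and the distal part in all 6 libraries.
Irf8, short end, chr8:120755359-120755388, plus strand: ccgcaacctgtgATTAAAgcattcctttcc
Irf8, long end, chr8:120756656-120756685, plus strand: atttcatcctttATTAAAaaaagttgctct
Rab1a, short end, chr11:20225419-20225448, plus strand: gaagatatgtttAATAAAtattgtacttat
Rab1a, long end, chr11:20226816-20226845, plus strand: tgagaatttcacAATAAAatcatagtttac
Otud5, short end, chrX:7874823-7874852, plus strand: aaatttttcttaATTAAAatgtgctttatt
Otud5, long end, chrX:7876579-7876608, plus strand: aactgtactataAATAAActtctgggctgg
The signal began 34 and 27 bases before the annotated end in Irf8, 34 and 29 bases in Rab1a and 26 and 36 bases in Otud5, at the short and the long end respectively.

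Genes whose reads ended beyond the short form are represented by Laptm5 and Il1rn, the members with the most reads, in which neither word stood at the short end.
Laptm5, long end, chr4:130936107-130936136, plus strand: ggaagaagggccAATAAAgcaactgcaagc
Il1rn, long end, chr2:24351454-24351483, plus strand: tctctgcttgtaAATAAAaagcttatgcag
Their distal shares were 99.9% and 99.98%.

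The distal parts were also searched for the nonamer TTATTTATT, a core of AU-rich elements, on the transcript strand with overlaps counted. It occurred in 76 of the 676 genes (11.2%), in 7.43% of the genes with a share under 10%, 11.9% of the mixed genes and 12.7% of those above 90%. The median distance between the ends was 1853.5, 2144.5 and 2459 bases in these sets, and the shorter word ATTTA occurred 1.71, 1.90 and 1.77 times per 1000 bases. Over all tandem genes with ends 1000 bases or more apart the figure was 13.5%. The 3 genes with the nonamer and the most reads were Pik3cd, Pim1 and Dgkh, with distal shares of 99.97%, 97.9% and 99.7%. Nearly all of their reads thus ended beyond the short form. The first nonamer began 1262, 735 and 5083 bases past the short end. Reads that ended before it and after it were not told apart. Pik3cd encodes a catalytic subunit of phosphoinositide 3-kinase, Pim1 a serine/threonine kinase and Dgkh a diacylglycerol kinase.
Pik3cd, distal part, chr4:149649359-149649388, minus strand: gtatgccatgTTATTTATTgaaaagagtct
Pim1, distal part, chr17:29495689-29495718, plus strand: tttaatgtatTTATTTATTtatttatttgg
Dgkh, distal part, chr14:78564507-78564536, minus strand: atcagtgcccTTATTTATTatgttgtgaaa
The capitals mark the first nonamer after the short end, and in Pim1 further copies overlap it. For the distal share, 0 of the 58 nonamer genes that could be tested passed an unadjusted threshold of 0.05 by edgeR's quasi-likelihood test, DESeq2 or limma, against 16 of the 412 without the nonamer by edgeR and 3.64% of all 961 tandem genes. For the level of the long region 3 of the 76 and 13 of the 600 passed it by edgeR. Of all 32475 transcripts tested, 1.59% passed it as higher and 2.54% as lower in M-Δx3,4. The median log2 fold change was 0.12 in both sets.

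Several of the genes with the most reads lay at 1 end of the scale in each library, where the share has little room to vary. Laptm5, a lysosomal membrane protein of blood cells, had a mean of 34709 reads on its long region and distal shares of 99.85% to 99.96% in control and 99.83% to 99.92% in M-Δx3,4. Il1rn, the interleukin-1 receptor antagonist, had shares of at least 99.92% in each library at a mean of 10972 reads. In both, nearly all reads ended beyond the short form. Hspa5, the chaperone BiP of the endoplasmic reticulum, used the short form, with shares of at most 0.0375% at a mean of 7462 reads. Pik3cd lay at 99.9% or above in each library, with a short region of 249 bases.

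Mcl1, an anti-apoptotic member of the Bcl-2 family, was mixed, unlike Laptm5, Il1rn, Hspa5 and Pik3cd. Its distal shares were 86.2%, 74.2% and 83.6% in control replicates 1, 2 and 3 and 88.5%, 80.0% and 86.1% in the M-Δx3,4 replicates. The groups overlapped (81.3% ± 6.28 and 84.9% ± 4.36, SD, n = 3 libraries each), and the log2 odds ratio was 0.36 ± 0.47 (SE). Its short region has no annotated 3′ UTR, so its proximal part holds reads around the stop codon.

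At the extremes of the share, the genes with the most reads were Pfkfb3, an enzyme that promotes glycolysis, Map4, a microtubule-associated protein, and B4galt5, a galactosyltransferase, in which all reads were distal. Dnaja1, an Hsp40 co-chaperone, Xaf1, an interferon-induced pro-apoptotic protein, and Eef1d, a subunit of a translation elongation factor, had no distal read among means of 1600, 524 and 411 reads. The longest distal parts belonged to D1Ertd622e (37585 bases), Serbp1 (13722 bases) and Aak1 (11359 bases), with shares of 0.637%, 6.65% and 99.2%. A long distal part was therefore found at both ends of the scale. Just inside the limit of 1000 bases lay Ino80e (20.9%) and Ptpa (100%), and just outside it Ube2e3 (996 bases, 6.08%) and Gfer (995 bases, 1.76%). Just inside the limit of 50 reads lay Maml2 (78.7%) and Slc36a1 (100%), and just outside it Zdhhc21 (49.8 reads, 99.7%) and Pigq (49.7 reads, 98.3%).

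The question of the design is whether macrophages of the M-Δx3,4 genotype use the distal parts to another extent, first over all genes together. The median distal share over the 684 genes was 85.7%, 77.9% and 76.1% in control replicates 1, 2 and 3 and 82.5%, 79.8% and 81.9% in the M-Δx3,4 replicates. The means were 79.9% ± 5.11 in control and 81.4% ± 1.41 in M-Δx3,4 (SD, n = 3), and the M-Δx3,4 libraries lay between the control libraries. The difference of 1.49 percentage points was smaller than the spread of the control libraries (p = 0.7, two-sided exact permutation test, which cannot give a p under 0.1 here). Without control replicate 1 it was 4.39 points and without control replicate 3 it was -0.40 points.

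In the 246 mixed genes, where a shift would show most, the medians were 62.5%, 55.0% and 52.1% in control and 57.6%, 54.5% and 56.9% in M-Δx3,4 (56.5% ± 5.38 and 56.3% ± 1.63, p = 0.9, exact permutation test). Control replicate 1 had the highest share of the 6 libraries in 62 of the mixed genes and the lowest in 19, while control replicate 3 had the highest in 34 and the lowest in 84. The median range between libraries of a mixed gene was 22.7 percentage points (quartiles 16.4 and 29.6). The median of the mixed genes thus differed more among the control libraries than between the groups. In the 125 mixed tandem genes with ends under 1000 bases apart, control replicate 1 was not the highest library. Their median shares were 38.7%, 46.5% and 39.7% in control and 44.8%, 45.8% and 36.3% in M-Δx3,4.

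**Figure D3:**
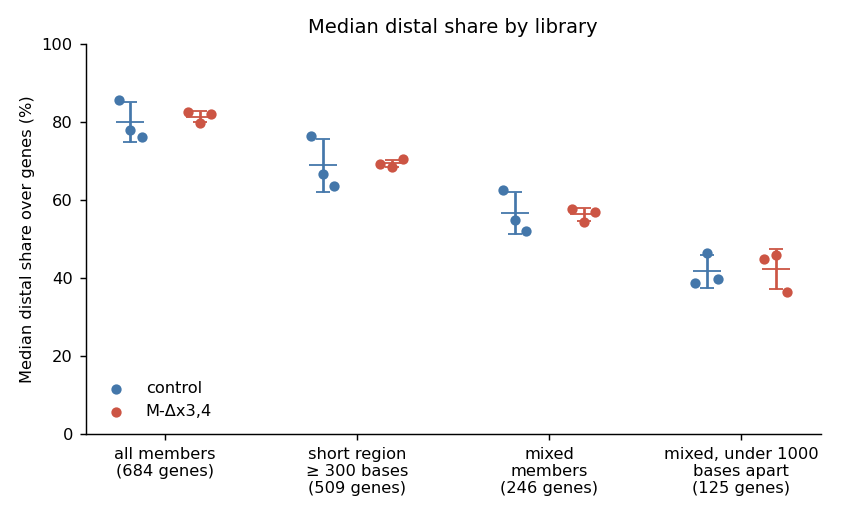
Median distal share over genes (y axis, %) in each library, for 4 sets of genes (x axis). Points are libraries, blue for control and red for M-Δx3,4, and bars give the mean ± SD of 3 libraries. In each of the first 3 sets the M-Δx3,4 libraries lie within the range of the control libraries, which for all 684 genes is 76.1% to 85.7%.

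Gene by gene, no tandem gene had a distal share that differed between the groups after Benjamini-Hochberg adjustment in edgeR's quasi-likelihood test (smallest adjusted p = 0.994), nor in DESeq2 or limma. Of the 474 genes tested, 0 had an adjusted p under 0.05, against a background of 0% of all 961 tandem genes tested. An unadjusted p under 0.05 was found in 16 of the 474 genes (3.38%), against 3.64% of all 961. DESeq2 gave 13 such genes and limma 14. The share was higher in M-Δx3,4 in 11 (2.32%, background 2.6%) and lower in 5 (1.05%, background 1.04%). This balance turned with the setting, since the share was higher in 2 of 7 genes when both parts needed a mean of 10 counts, in 5 of 11 without M-Δx3,4 replicate 1 and in 6 of 18 without control replicate 3. All 3 libraries of a group lay on 1 side of the other group in 22 genes with a higher share (4.64%, background 5.1%) and in 20 with a lower one (4.22%, background 4.58%). Each of these shares was close to its background. The median difference was 0.127 percentage points over the 474 genes and 0.237 over all 961, with the mean share higher in M-Δx3,4 in 249 genes and lower in 225. When control replicate 1 was left out, the count was 32, and the share was higher in M-Δx3,4 in 26 of them. No background of unadjusted p values over all 961 genes is given for that fit, so this count is not read as particular to the 474 genes. In that fit 0 of the 961 passed the adjustment.

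The 16 genes were 12 of the 151 tested with a share above 90%, 4 of the 246 mixed genes and 0 of the 77 tested with a share under 10% (0 in DESeq2 and 1 in limma for the last set). No background by share over all 961 tandem genes stands beside this split, only the 3.64% for all of them together, so the split is a description. The genes described next have the smallest unadjusted p values among those whose libraries did not overlap, and none passes the adjustment. Siae, the sialic acid acetylesterase, had distal shares of 88.9%, 76.6% and 62.7% in control and 92.1%, 94.0% and 96.6% in M-Δx3,4, from 45 to 88 reads per library. Each M-Δx3,4 library lay above each control library, and the log2 odds ratio was 2.32 ± 0.79 (SE, unadjusted p = 0.0105). The control libraries alone spanned more points than the groups were apart on average.

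Asb8, whose protein has ankyrin repeats and a SOCS box, had 4, 1 and 5 proximal reads in control, of 132 reads in all, and none of 195 reads in M-Δx3,4. The proximal reads were 7.58% of the total in control and 0% in M-Δx3,4, where a count of 0 allows up to 1.54% (counting error only, unadjusted p = 0.00447). S100pbp had proximal reads of 5, 5 and 3 among 243 in control and of 0, 1 and 2 among 354 in M-Δx3,4. Both values rest on a few reads. Pptc7, a phosphatase of mitochondria, had distal shares of 94.2%, 96.5% and 87.5% in control and 96.6%, 98.5% and 99.4% in M-Δx3,4 (log2 odds ratio 2.23 ± 0.79). For Slc7a2, a transporter of arginine and other cationic amino acids, the shares were 94.0%, 87.7% and 91.7% in control and 97.5%, 97.3% and 97.1% in M-Δx3,4 (1.70 ± 0.64). In these genes the reads in question came from a short form that held under 10% of the total in either group.

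Among genes with a lower distal share, Tmbim6, a membrane protein of the endoplasmic reticulum that inhibits cell death, had shares of 96.7%, 96.4% and 97.8% in control and 92.0%, 90.3% and 92.5% in M-Δx3,4. The groups did not overlap, with means of 97.0% ± 0.749 and 91.6% ± 1.14 (SD, n = 3), and the log2 odds ratio was -1.55 ± 0.56 (SE, unadjusted p = 0.0144). Its short region is 286 bases, under the 300 bases below which short counts could exceed long ones. Clcn3, a chloride/proton exchanger of endosomes, had shares of 91.8%, 96.7% and 93.8% in control and 80.0%, 87.5% and 76.7% in M-Δx3,4, from 35 to 103 reads per library (log2 odds ratio -1.79 ± 0.73, unadjusted p = 0.0267). It was the only 1 of the 10 genes with a signal word at the short end, and it carried the same word at both ends.
Clcn3, short end, chr8:60911924-60911953, minus strand: atatttttatggATTAAAatttataaaatg
Clcn3, long end, chr8:60910394-60910423, minus strand: gagttaagatctATTAAAatctctacttaa

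Pdlim5, a PDZ and LIM domain protein of the cytoskeleton, had shares of 98.2%, 94.4% and 92.9% in control and 89.4%, 91.4% and 81.3% in M-Δx3,4, and Ubp1, a transcription factor, had 1 proximal read of 631 in control and 10 of 670 in M-Δx3,4. In both the short region is 249 bases, for which, as in Tmbim6, the subtraction cannot be taken as exact. Mafg, a small Maf transcription factor, had 2 proximal reads of 814 in control and 12 of 948 in M-Δx3,4. All 5 genes lay above 80% in the mean of both groups, so most reads ended beyond the short form with and without the deletion.

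**Figure D4:**
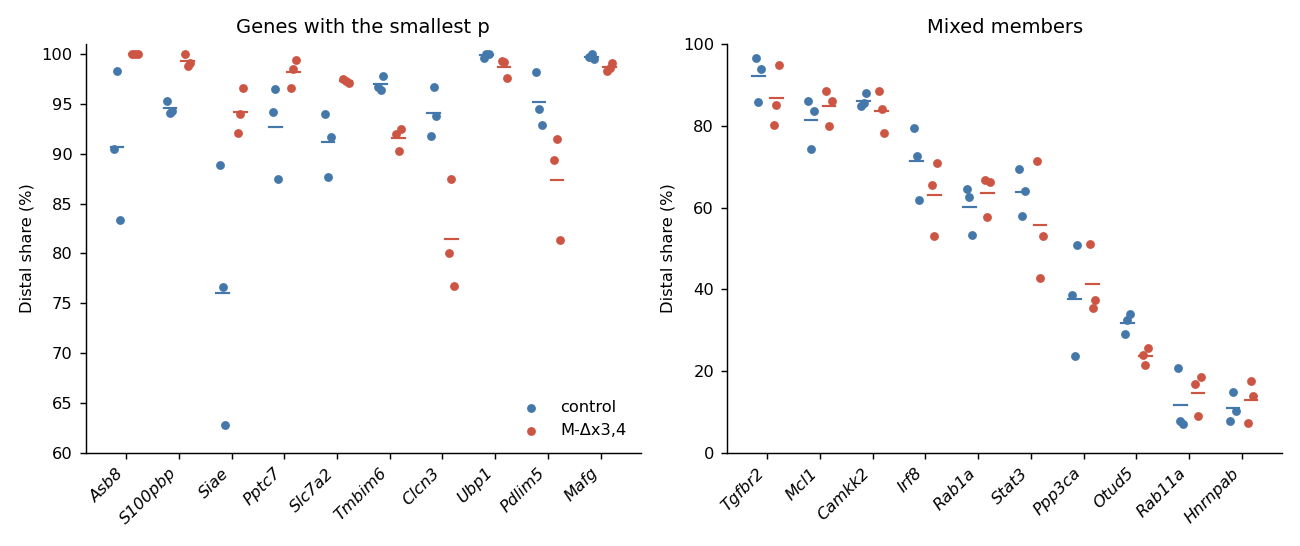
Distal share (y axis, %) in each library for the 10 genes with the smallest p among those whose libraries do not overlap (left, axis from 60%) and for 10 mixed genes (right, axis from 0%). Points are libraries, blue for control and red for M-Δx3,4, and short lines are means of 3 libraries. On the left the groups are apart in each gene, and on the right they overlap in all but Otud5.

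By gene symbol, 117 of the 684 genes fell in 1 of 7 lists. The list of RNA-binding proteins was a set of given symbols, and the other lists took symbols with given beginnings. Genes of the same function under other symbols were left out, so the counts describe the lists only. In these lists, 4 of the 80 genes that could be tested had an unadjusted p under 0.05 for the share (5.0%, against 3.64% of all 961). DESeq2 gave 2 and limma 1. By edgeR they were Rapgef1, Rnf141, Mapkbp1 and Klf13, each with a higher mean share in M-Δx3,4. In Rapgef1 all 15 proximal reads, and in Mapkbp1 12 of the 15 proximal reads in control, came from control replicate 3. The list of RNA-binding proteins that act on AU-rich elements or mRNA stability held 11 genes, 4 with a share under 10%, 3 mixed and 4 above 90%. Caprin1, which is found in stress granules, used the short form (2.44%), and reads of Tardbp, the nuclear protein TDP-43, ended beyond the short form (98.7%). Hnrnpab, a close relative of AUF1, had shares of 7.77%, 14.8% and 10.3% in control and 7.40% to 17.5% in M-Δx3,4, with overlap. None of the 9 genes tested in this list had an unadjusted p under 0.05 in edgeR, DESeq2 or limma.

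The list of small GTPases and their regulators had, of the 7 lists, the largest part of genes above 90%, with 17 of 27, 8 mixed and 2 under 10%. Rac1, which drives actin assembly at the cell edge, used the short form in each library. Rab1a, which acts between the endoplasmic reticulum and the Golgi, was mixed, with shares of 64.6%, 62.5% and 53.2% in control and 66.7%, 57.6% and 66.3% in M-Δx3,4. Rab11a, of recycling endosomes, had 20.7%, 7.79% and 6.98% against 16.8%, 8.91% and 18.5%. In both the groups overlapped. Rasgef1b, an exchange factor that is induced by LPS, lay at 98.8%.

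Of the 27 genes in the list of the ubiquitin and SUMO system, 12 lay above 90%, 12 were mixed and 3 lay under 10%. Nearly all reads of the conjugating enzymes Ube2d3 (99.0%) and Ube2h (99.9%) and of the ubiquitin ligase Rnf141 (99.4%) ended beyond the short form. Otud5, a deubiquitinase that restrains type I interferon, had shares of 29.1%, 32.5% and 34.0% in control and 23.9%, 21.5% and 25.6% in M-Δx3,4, from 553 to 757 reads per library. Its groups did not overlap (31.9% ± 2.51 and 23.7% ± 2.07, SD, n = 3), yet the log2 odds ratio of -0.59 ± 0.45 had an unadjusted p of 0.21 in edgeR's quasi-likelihood test.

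The list of kinases and phosphatases of signalling (20 genes) held 11 above 90%, 8 mixed and 1 under 10%. Irak2, a kinase downstream of Toll-like receptors, had only distal reads, and Camkk2, a calcium-dependent kinase that activates AMPK, had a share of 84.5%. Ppp3ca, a catalytic subunit of calcineurin, had 38.7%, 23.7% and 50.7% in control and 51.0%, 35.4% and 37.4% in M-Δx3,4. Control replicates 2 and 3 of this gene differed by more than any pair of M-Δx3,4 libraries.

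Among the 17 genes listed for transcription and chromatin 8 lay above 90%, 6 were mixed and 3 under 10%. Irf8, a transcription factor that shapes the macrophage lineage, had 79.5%, 72.5% and 61.9% in control and 65.6%, 53.1% and 70.8% in M-Δx3,4 (71.3% ± 8.89 and 63.2% ± 9.11), and Stat3, which transmits interleukin-10 and interleukin-6 signals, 69.3%, 58.0% and 64.0% against 71.5%, 42.7% and 53.1%. In both the groups overlapped. Zbtb7a lay at 99.8% and Zfp710 had no distal read. The membrane traffic list held 8 genes (2 above 90%, 3 mixed, 3 under 10%). The translocon subunit Sec61g and the SNARE Stx7 lay at the short end (0.0392% and 0.92%), and Tmed2 and Snx10 at 95.3% and 94.5%. Of the 7 genes whose symbols begin like those of cytokines and receptors 4 lay above 90%, 2 were mixed and 1 under 10%. Nearly all reads of Il1rn, of Ilrun, a regulator of interferon and TNF production, and of Il15ra, the interleukin-15 receptor subunit, ended beyond the short form. Tgfbr2, a receptor of TGF-β, had 89.4%.

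The factors that cut and polyadenylate mRNA were examined by their level. Of 22 genes 21 were tested, and neither edgeR's quasi-likelihood test nor DESeq2 gave any of them (0) an unadjusted p under 0.05. Over all 32475 transcripts edgeR gave 1.59% higher and 2.54% lower, and DESeq2 3.18% in all. A count of 0 among 21 genes therefore says little. Their median log2 fold change was -0.01. Fip1l1 and Nudt21, subunits of the cleavage complexes CPSF and CFI, are themselves tandem genes. The distal share of Fip1l1 was 91.3%, 73.4% and 67.3% in control and 86.2%, 91.1% and 83.6% in M-Δx3,4, and the distal reads of Nudt21 were 10 of 50, 1 of 64 and 4 of 109 against 5 of 64, 4 of 75 and 10 of 125. In both genes the control libraries enclosed the M-Δx3,4 libraries.

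Apart from the share, the level of the long region, which counts both forms, was compared across all 32475 transcripts tested. By edgeR's quasi-likelihood test and by DESeq2, 0 of the 684 genes passed the adjustment, against a background of 0% of all transcripts in edgeR and 4 of the 32475 in DESeq2. An unadjusted p under 0.05 was found for 12 genes that were higher in M-Δx3,4 (1.75%, background 1.59%) and 4 that were lower (0.585%, background 2.54%). Of these 16, Gsk3b, Tirap and Gnb4 reached the limit of 50 reads only through the group in which they were higher, so the rule bears on their difference. The 594 genes with both group means at the limit or above held 10 higher and 3 lower. In DESeq2 there were 20 of the 684, of which 15 were higher, beside 3.18% of all transcripts. The median log2 fold change was 0.12 over the 684 genes and -0.03 over all transcripts. The count rested on single libraries. When control replicate 1 was left out the count was 208 of 684, with 184 higher, beside 4631 of 31835 (14.5%) of all transcripts tested in that fit. The median log2 fold change was then 0.36 over the 684 genes and -0.02 over all transcripts. In that fit 48 of all transcripts and 0 of the 684 genes passed the adjustment. Without any 1 of the other libraries the count was 5 to 7 of 684, beside 2.58% to 3.45% of all transcripts.

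Elavl1, which encodes HuR, a protein that binds AU-rich elements and stabilizes mRNAs, was among the 12. Its normalized counts were 164, 166 and 244 in control and 331, 336 and 299 in M-Δx3,4. The groups did not overlap (191 ± 45.6 and 322 ± 20.1, SD, n = 3), and the log2 fold change was 0.75 ± 0.32 (SE, unadjusted p = 0.0341). Its distal share was 1.91% ± 0.602 in control and 3.04% ± 1.74 in M-Δx3,4, so that the short form made up nearly all of its reads in both groups.

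Fam49b, an inhibitor of Rac1 signalling, had normalized counts of 1029, 663 and 408 in control and 1440, 1457 and 1113 in M-Δx3,4 (log2 fold change 0.93 ± 0.35). Its paralog Fam49a had 146, 82.8 and 85.9 against 180, 173 and 221 (0.87 ± 0.36), and Cyfip1, a subunit of the WAVE complex, 614, 442 and 484 against 918, 712 and 800 (0.66 ± 0.30). In each the libraries did not overlap.

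Gsk3b, a kinase of Wnt and insulin signalling, is given as a description, with normalized counts of 53.5, 37.8 and 16.2 in control and 58.7, 91.3 and 128 in M-Δx3,4. Tirap, the adaptor of Toll-like receptor 4, the receptor for LPS, had 46.5, 33.7 and 47.6 against 91.9, 57.3 and 87.1. Both reached the limit of 50 reads through the M-Δx3,4 libraries. Among the 4 lower genes were Ergic1, of the transport between endoplasmic reticulum and Golgi, with 107, 163 and 216 in control and 52.8, 85.5 and 105 in M-Δx3,4, and Ciapin1, an assembly factor of iron-sulfur proteins, with 214, 239 and 556 against 201, 159 and 164. Control replicate 3 set the high mean of Ciapin1. No gene had an unadjusted p under 0.05 for both its share and its level.

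**Figure D5:**
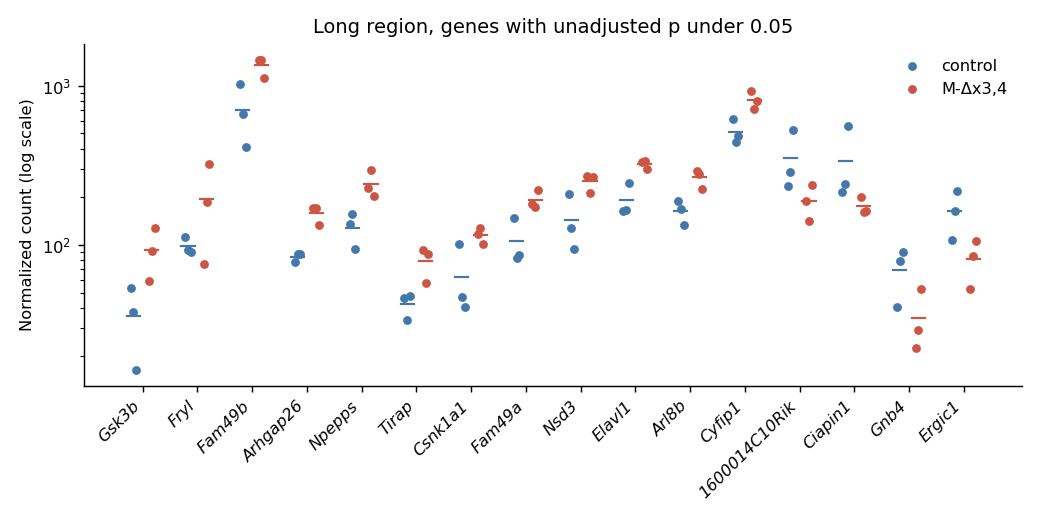
Normalized count of the long region (y axis, log scale) in each library for the 16 genes with an unadjusted p under 0.05 (x axis, ordered by log2 fold change). Points are libraries, blue for control and red for M-Δx3,4, and short lines are means of 3 libraries. In Elavl1 the control libraries lie at 164 to 244 and the M-Δx3,4 libraries at 299 to 336, and in Fryl, Gnb4 and 1600014C10Rik the groups overlap.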

How the data were processed

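RNA of 6 BMDM libraries was prepared with QuantSeq 3′ mRNA-Seq kits. The authors mapped the reads to mm10 with TopHat2 2.1.1 and Bowtie2 (2.3.2 in the submitters' processing notes, while the study's methods give another version) and deposited raw counts per 3′ UTR region of Ensembl transcripts, without normalization. A second table with the authors' own comparison, including 24 columns of per-sample values, was not used. The labels do not say whether the 3 libraries of a group came from separate animals, so p-values measure only the spread between these libraries. Counting used strand, since 274 of 339 regions nested within a region of the opposite strand had more counts than it, against 0 of 5112 on the same strand, so 107 members that overlap a gene of the other strand were kept. The 20 members that overlap another gene of the same strand share reads with it.

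Where a gene had several pairs of regions, the pair with the highest mean long count among those that met the rule was used. Proximal and distal counts of the 961 tandem genes with a mean of at least 20 long counts and at least 10 counts in each part were tested with edgeR 4.0.16 (quasi-likelihood, terms for library, part and part by genotype) and adjusted by Benjamini-Hochberg over all 961. The log2 odds ratio is the change of the distal to proximal ratio in M-Δx3,4 over control. Levels were normalized by the median of ratios, limited to transcripts above the median normalized count in at least 1 library, and tested in the same way over 32475 transcripts. DESeq2 1.42.0 and limma 3.58.1 (pseudocount 0.5) were alternatives. Fits were also run on simulated data with an assumed spread between libraries. The outcome is not given here, and no size of shift that the tests could find is taken from it. A fixed rule named the members with the smallest p whose libraries did not overlap, the most reads, the extreme shares, the longest distal parts, those next to each limit and up to 4 members per gene list with the most reads. Genes described by their level, and those whose sequences are shown, were chosen after their values were seen. Members and lists were chosen with earlier results of these data known. Sequences are from GENCODE vM21 transcripts. Intervals for a count of 0 take 3 counts of the total. Among the members that this rule names, 1 is not reported here.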

Additional observations from a re-analysis of the deposited data

How the results depend on the processing

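The number of genes with an unadjusted p under 0.05 for the distal share was 16 and became 7 of 310 when both parts needed a mean of 10 counts, 10 of 264 at 2000 bases between the ends and 9 of 326 at a mean of 100 reads, where fewer genes were tested. Leaving out 1 library at a time gave 11 to 32, the highest without control replicate 1, and without control replicate 3 only 6 of 18 were higher. The difference of the median share was -0.23 percentage points in the mixed genes alone, an alternative chosen after seeing the data, and -0.40 to 4.39 points on leaving out 1 library at a time. For the level, the count of 16 became 25 without the filter on low counts and 5 to 208 on leaving out 1 library at a time, the highest without control replicate 1. With the replicate number as a block the counts were 19 for the share and 14 for the level, and the difference of the median was 1.49 points (p = 0.75, exact sign-flip test). The labels do not pair the libraries by number, and the deviations of same-numbered libraries from their group means correlated at -0.0055, 0.158 and -0.0287 for the distal to proximal ratio and at -0.212, 0.470 and -0.441 for the level. Only the libraries numbered 2 correlated best with their own number. The difference of the median share was 0.53 points in genes with short regions of 300 bases or more, 0.57 at a mean of 100 reads and 0.79 for summed counts. The other alternatives kept both counts and the difference within 1.5 times, and in none did a member pass the adjustment. Of the 10 genes named for their share, Asb8, S100pbp and Tmbim6 kept an unadjusted p under 0.05 in each of the 11 alternatives that could test them. For Tmbim6 this leaves out the limit of 300 bases, which its short region does not reach. For Asb8 and S100pbp it leaves out the mean of 10 counts in both parts, which their few proximal reads do not reach. The other 7 genes lost that p in 1 to 5 alternatives, and none of the 10 changed direction. Shares rest on 30 to 424 reads per library in these 10 genes, which limits how small a shift could be seen. The cause of the dependence on control replicate 1 was not tested.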
